A study of Mus musculus with 574 samples.

Results

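The 10 genes described here set the pace of the G1 phase in mouse granulocyte/macrophage progenitors (GMPs) taken from bone marrow after 5-fluorouracil (5-FU), a drug that kills dividing cells: the D cyclins Ccnd1, Ccnd2 and Ccnd3, their kinases Cdk4 and Cdk6, the kinase inhibitors Cdkn1b, Cdkn2c and Cdkn2d, and the antiproliferative genes Btg1 and Btg2. They were chosen by name, as 10 of 46078 gene rows, and all 10 were found and passed the filter on low counts. GMPs were sorted 1 to a well as lineage-negative, c-Kit+, Sca-1-, CD34+ and FcγR+ cells, and their RNA was read by Smart-seq2, which copies whole polyadenylated messages and keeps no record of strand. Every set came from C57Bl/6 mice and is labelled as 5-FU-treated, the drug being given as 1 dose of 150 mg/kg. The labels give 1 set of cells each on days 0, 10, 12 and 14 after treatment and 2 sets on day 8. The protocol also names saline-treated control mice and does not say whether the day 0 cells are theirs.

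D cyclins are short-lived proteins that growth factor signals induce. They bind CDK4 or CDK6, and the active pair phosphorylates the retinoblastoma protein, which releases E2F factors and lets a cell leave G1 for DNA replication. INK4 proteins (among them p18, from Cdkn2c, and p19, from Cdkn2d) block CDK4 and CDK6 directly, p27 (from Cdkn1b) blocks the later CDK2 complexes, and BTG proteins lower messenger RNA levels by recruiting the CCR4-NOT deadenylase. In blood progenitors, CDK6 and cyclin D2 or D3 are known as drivers of proliferation, while p18 and p27 are known to restrain stem and progenitor cells.

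Of 573 cells, 500 held 50000 or more gene reads and 1000 or more genes and were used. They numbered 92 for day 0, then 90 and 93 for the pair of day 8 sets, 93 for day 10, 85 for day 12 and 47 for day 14. The median depth ran from 79451 reads per cell on day 14 to 289938 in the first day 8 set, and the summed depth from 4849678 to 30691997 reads. Xist and the Y-linked Eif2s3y placed the sets of days 0 and 12 with females and the others with males, so only day 12 against day 0 and days 10 and 14 against day 8 compare sets of 1 sex. Mpo, a granule enzyme gene that marks GMPs, was read in every set, at 14500 to 51100 CPM (read counts scaled to a fixed library size). Day 8 differed from day 0 in its makeup of markers: the summed level of 11 GMP genes was 84100 CPM on day 0 and 38700 and 30000 CPM on day 8, that of 13 stem and multipotent progenitor genes was 799 CPM and then 1760 and 2150 CPM, and that of 8 erythroid genes was 22.8 CPM and then 147 and 177 CPM. The summed level of 12 monocyte genes was 7340 CPM on day 0 and 2400 and 1260 CPM on day 8, and 7 of the 11 tested fell. The nuclear RNAs Malat1 and Neat1, taken as signs of RNA quality, summed to 548 CPM and then 214 and 296 CPM, and both fell on days 8 and 10 against day 0, as Btg2 did. Of the erythroid genes, 4 were at 0 on day 0 and 1 in each day 8 set. The part of these markers in the changes of the 10 genes was not tested.

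Levels below are CPM of the counts summed over the kept cells of a set, scaled by the trimmed mean of M values (TMM). A gene is said to have risen or fallen where edgeR's quasi-likelihood test gave an adjusted p under 0.05 over all 15145 genes tested. Its error comes from the 2 day 8 sets alone, because no other day has a replicate. Comparisons with day 0 share 1 set and those with day 8 share 2 sets, so they are not independent of each other. More cells with a transcript and more transcripts per cell cannot be told apart in such sums; shares of cells with a read are given beside them.

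**Figure D1:**
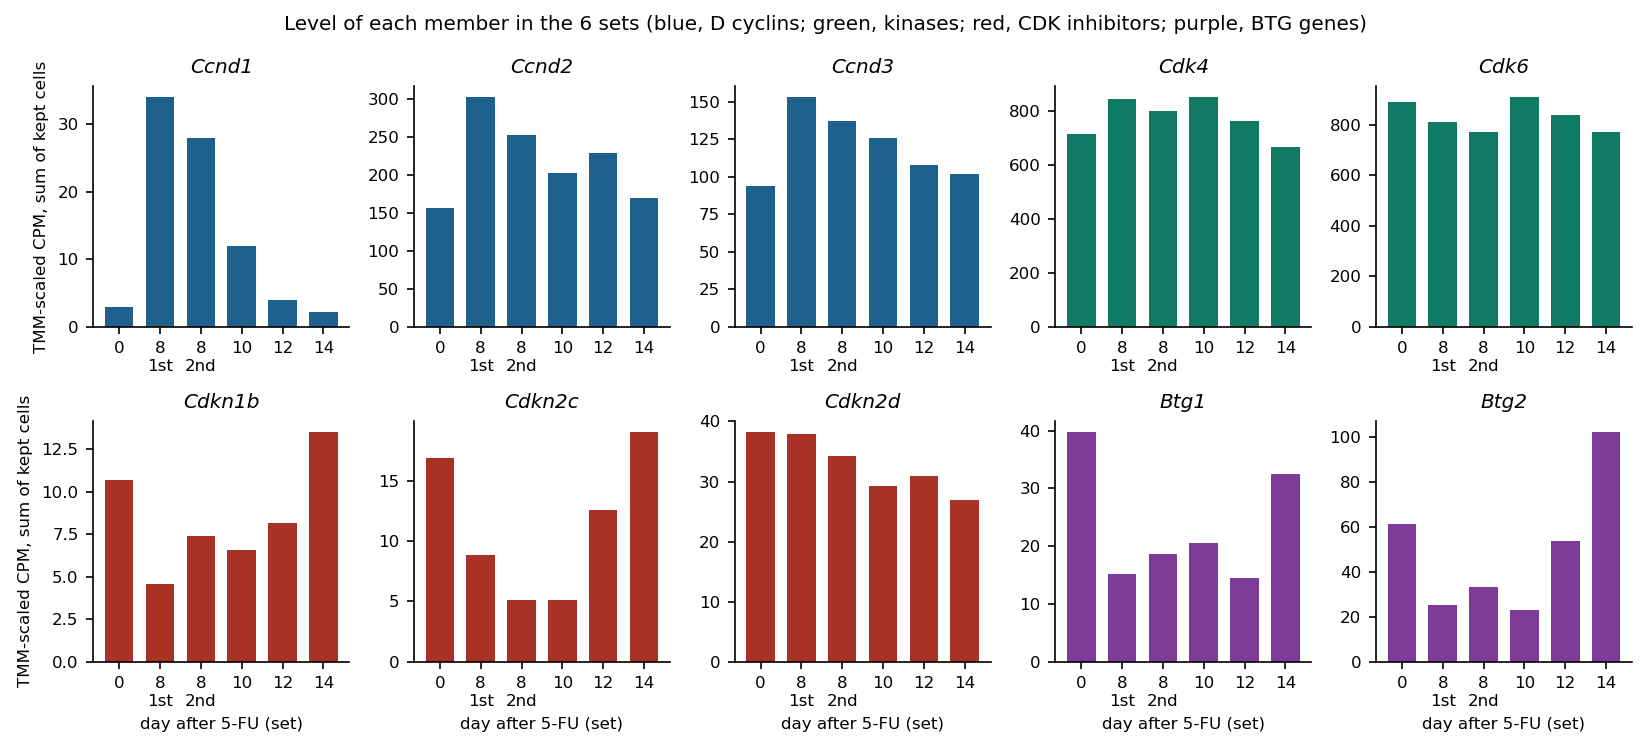
Summed level of each of the 10 genes (vertical axis, TMM-scaled CPM, from 0) in the 6 sets in order of day (horizontal axis; 1st and 2nd mark the sets of day 8). Bars are single sets; Ccnd1 stands at 33.9 and 27.9 CPM on day 8 and at 2.25 to 12.0 CPM in the other sets, while Cdk4 and Cdk6 keep between 667 and 909 CPM throughout.

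Ccnd1, which encodes cyclin D1, was the D cyclin that changed most. It stood at 2.88 CPM on day 0, 33.9 and 27.9 CPM in the day 8 sets, 12.0 CPM on day 10, 3.9 CPM on day 12 and 2.25 CPM on day 14. Both day 8 sets lay above every other set, and day 10 lay between them and the rest. Ccnd1 rose 10.7-fold on day 8 against day 0 (log2 3.42, SE 0.51, adjusted p = 5.18e-06). On day 10 it was still 4.16-fold above day 0 (log2 2.06, SE 0.52, adjusted p = 0.0248), a call lost with the DESeq2 Wald test (adjusted p = 0.136) and with limma voom (adjusted p = 0.203). Day 12 and day 14 differed from day 0 by log2 0.44 (95% interval -0.61 to 1.48) and -0.36 (-1.68 to 0.96), and neither was called. From day 8 the fall was log2 -2.99 by day 12 (SE 0.49, adjusted p = 5.11e-05) and log2 -3.78 by day 14 (SE 0.59, adjusted p = 5.2e-06), the latter between sets of the same sex. From day 8 to day 10 the difference was log2 -1.36 (SE 0.44, adjusted p = 0.171), which was not called. The gene lies on the minus strand at chr7:144929931-144939925 (mm10) and overlaps LTO1 on the other strand, whose reads cannot be told apart by strand.

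The share of cells with a Ccnd1 read moved along with its level. In cells thinned to 50000 reads, those with a Ccnd1 read held a median of 1 to 3 reads. At such low counts the share does not separate more cells with a transcript from more transcripts per cell. After each cell was thinned to 50000 reads, a Ccnd1 read was found in 6.52% of day 0 cells (6 of 92, with an exact 95% interval of 2.43 to 13.7%). The shares were 47.8% (37.1 to 58.6%) and 40.9% (30.8 to 51.5%) in the day 8 sets. They were 22.6% on day 10 (14.6 to 32.4%), 7.06% on day 12 (2.63 to 14.7%) and 4.26% on day 14 (0.52 to 14.5%). The intervals of the day 8 sets did not overlap those of days 0, 12 and 14. The day 0 level rests on 48 reads in 8 unthinned cells, 47.9% of them in 1 cell, and the day 14 level on 9 reads in 4 cells. On day 8 the reads were spread more widely, with 13.7% and 11.3% in the top cell of each set. Intervals of shares, here and below, cover only the sampling of cells within 1 set. They leave out differences between mice or plates, and days 0, 12 and 14 have 1 set each. PCR copies are not marked, so reads are not counts of molecules.

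Ccnd2, which encodes cyclin D2, was the most abundant D cyclin in every set. It was read at 156 CPM on day 0, then 302 and 252 CPM in the day 8 sets, 203 CPM on day 10, 229 CPM on day 12 and 170 CPM on day 14. Day 0 was the lowest set and the day 8 sets were the highest. The difference of day 8 from day 0 was log2 0.83 (SE 0.27, 95% interval 0.29 to 1.36), which missed the threshold (adjusted p = 0.0615), and that of day 14 from day 8 was log2 -0.70 (SE 0.27, adjusted p = 0.0745). Ccnd2 reads, at chr6:127125162-127152193 on the minus strand, may include those of the antisense genes Gm43126 and 9330179D12Rik.

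Ccnd3, which encodes cyclin D3, was likewise lowest on day 0 and highest on day 8, with a smaller difference. It stood at 93.8 CPM on day 0, then 153 and 137 CPM in the day 8 sets, 126 CPM on day 10, 108 CPM on day 12 and 102 CPM on day 14. Day 8 differed from day 0 by log2 0.63 (SE 0.27, 95% interval 0.10 to 1.16, adjusted p = 0.182), and no comparison of Ccnd3 was called with TMM scaling. The gene overlaps Bysl on the other strand at chr17:47505051-47599691.

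Per kilobase of exon, Ccnd1 gave 2.19% of the D cyclin total on day 0, then 12.7% and 12.3% in the day 8 sets, 6.64% on day 10, 2.21% on day 12 and 1.58% on day 14. Ccnd2 held 55.5 to 65% and Ccnd3 30.7 to 38.4% in all 6 sets, so cyclin D1 messages were the minority even at their highest. The ratio of Ccnd2 to Ccnd1 per kilobase was 27.2 on day 0, 4.46 and 4.52 on day 8 and was 37.9 on day 14, while the ratio of Ccnd3 to Ccnd2 kept between 0.505 and 0.666. In thinned cells, reads of all 3 D cyclins were found together in 4.35% of day 0 cells, 47.8% and 34.4% of day 8 cells, 20.4% on day 10, 5.88% on day 12 and 4.26% on day 14. A Ccnd2 read was found in 78.7 to 98.9% of all thinned cells of a set. Of the cells with Ccnd1, 2 of 6 lacked Ccnd2 on day 0, 0 of 43 and 2 of 38 in the day 8 sets, 1 of 21 on day 10, 0 of 6 on day 12 and 0 of 2 on day 14.

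**Figure D2:**
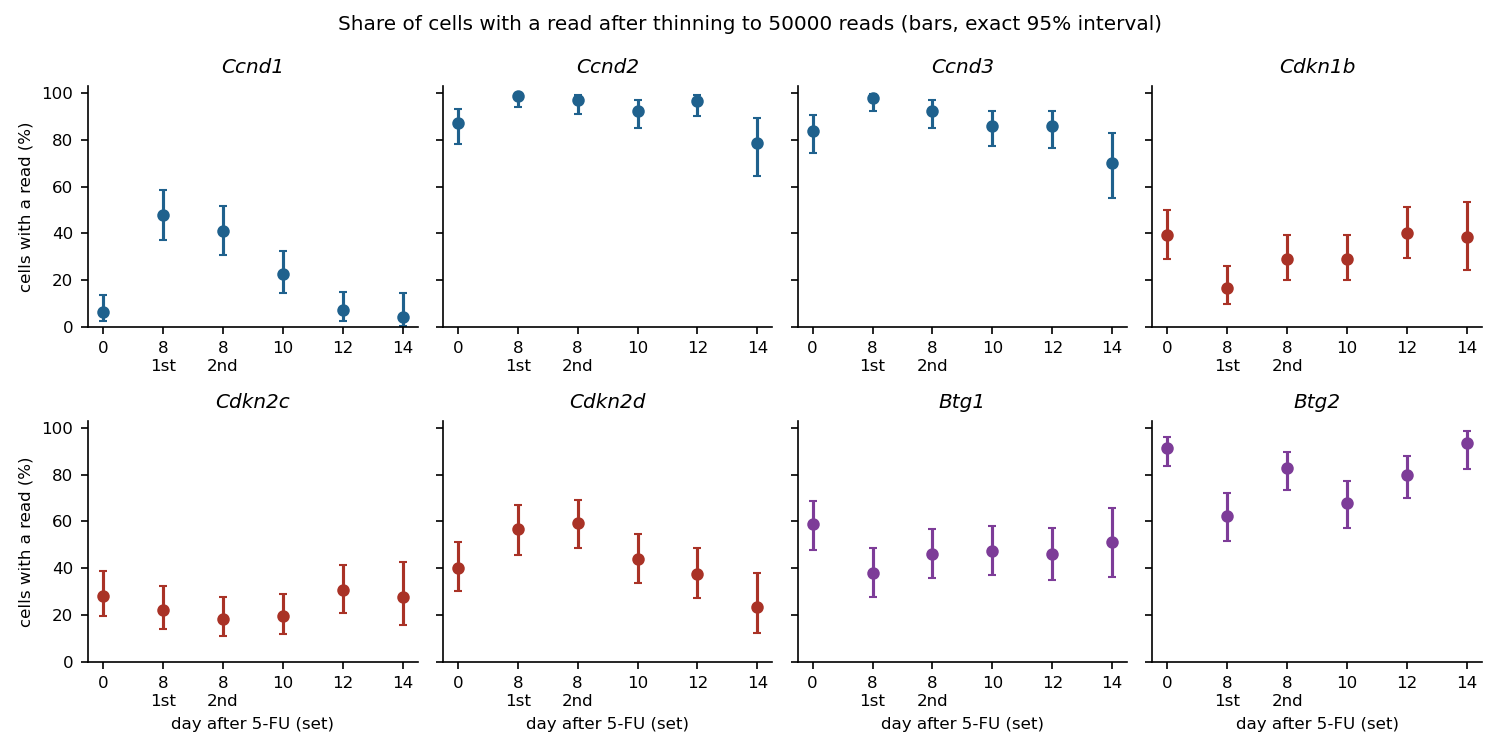
Share of kept cells with at least 1 read of a gene after thinning to 50000 reads (vertical axis, percent) by set (horizontal axis) for 8 genes; bars are exact 95% binomial intervals. Cdk4 and Cdk6 are left out because 89.4 to 100% of cells held a read. Ccnd1 goes from 6.52% to 47.8% and 40.9% on day 8 and back to 4.26% on day 14.

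The kinases showed no called change with TMM scaling. Cdk4 stood at 715 CPM on day 0, then 843 and 799 CPM in the day 8 sets, 850 CPM on day 10, 763 CPM on day 12 and 667 CPM on day 14. Its difference between day 8 and day 0 was log2 0.20 (95% interval -0.35 to 0.75). Cdk6, the kinase most tied to blood progenitors, stood at 890 CPM on day 0, then 811 and 771 CPM in the day 8 sets, 909 CPM on day 10, 841 CPM on day 12 and 771 CPM on day 14. Its day 8 sets lay below day 0, whereas those of Cdk4 lay above it, and the day 8 difference of Cdk6 was log2 -0.17 (95% interval -0.72 to 0.38). With 1 set on day 0, changes within these intervals are not excluded. The intervals are not limits of detection, since Ccnd2 at log2 0.83 (SE 0.27) was not called in the same comparison. Per kilobase, Cdk4 was the highest of the 10 genes in every set, at 205 to 262 CPM per kilobase, and Cdk6 was second, at 55.1 to 65 CPM per kilobase. The ratio of Cdk6 to Cdk4 per kilobase was 0.289 on day 0, then 0.223 and 0.224 in the day 8 sets, 0.249 on day 10, 0.256 on day 12 and 0.268 on day 14, so the day 8 sets were the lowest and day 0 the highest. Cdk4 overlaps Tspan31 on the other strand at chr10:127063534-127067920, and Cdk6 overlaps the antisense genes Gm17590 and Gm42435 at chr5:3341485-3531008. A read was found in 89.4 to 100% of thinned cells for Cdk4 and in 91.5 to 100% for Cdk6, with the lowest shares on day 14.

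**Figure D3:**
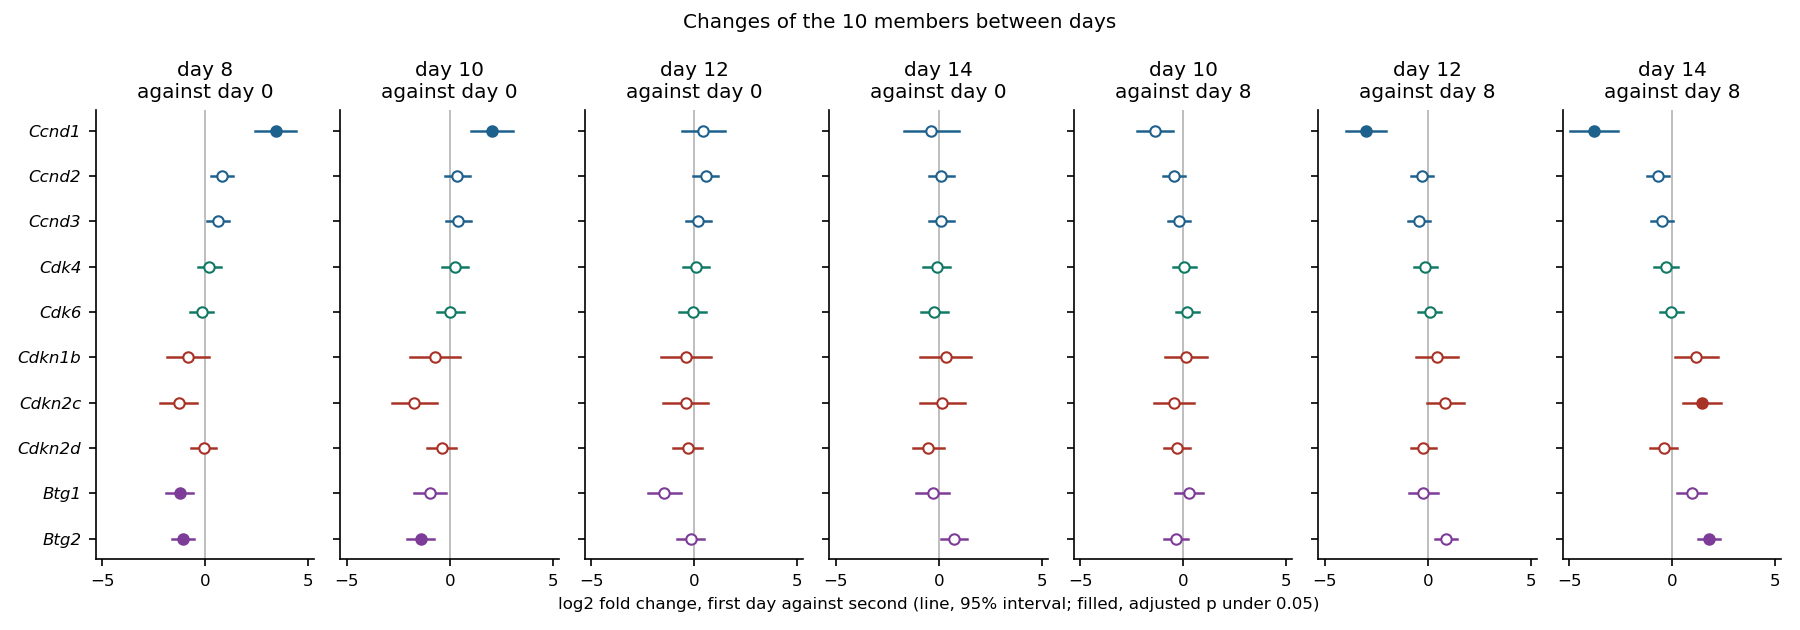
Log2 fold change of each of the 10 genes (horizontal axis) in the 7 comparisons of days, from edgeR on the summed counts; lines are 95% intervals and filled points have an adjusted p under 0.05. Filled points are Ccnd1 in 4 comparisons (3.42, 2.06, -2.99 and -3.78), Btg2 in 3 (-1.06, -1.41 and 1.80), Btg1 in 1 (-1.23) and Cdkn2c in 1 (1.44).

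On day 8 against day 0, 3 of the 10 genes were called, 1 higher and 2 lower, where 5.63% of all genes tested were called. The median log2 change of the 10 was -0.12, against 0.01 for all genes. On day 10 against day 0, 2 of 10 were called (background 1.45%), and on day 12 against day 0, 0 of 10 were (background 0.172%). On day 14 against day 0, 0 of 10 were called (background 1.58%), and on day 10 against day 8 also 0 of 10 (background 0.792%). In each of these 3 comparisons 1 of the 10 had an unadjusted p under 0.05 in edgeR (Btg1, Btg2 and Ccnd1 in turn), and the DESeq2 Wald test and limma voom called 0 of the 10. Of all 15145 genes, 1190, 2047 and 1131 in turn had an unadjusted p under 0.05. On day 12 against day 8, Ccnd1 alone was called (background 2.5%), and on day 14 against day 8, 3 of 10 were, 2 higher and 1 lower (background 14.2%).

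The INK4 and p27 genes were low and uneven across cells. Cdkn2c, which encodes p18, stood at 16.9 CPM on day 0, then 8.86 and 5.09 CPM in the day 8 sets, 5.11 CPM on day 10, 12.6 CPM on day 12 and 19 CPM on day 14. The sets of days 8 and 10 were all below those of days 0, 12 and 14. Cdkn2c rose 2.71-fold on day 14 against day 8 (log2 1.44, SE 0.48, adjusted p = 0.0344). Its difference on day 8 against day 0 was log2 -1.27 (SE 0.46, adjusted p = 0.0915) and on day 10 against day 0 log2 -1.72 (SE 0.56, adjusted p = 0.127), neither of them called. The day 14 call rests on 76 reads in 15 cells and was lost under 7 of 10 alternatives with a test; with cells of at least 200000 reads, of which day 14 has 4, the sign turned (log2 -2.68, adjusted p = 0.117). In thinned cells, 27.7% of day 14 cells held a read (95% interval 15.6 to 42.6%), against 22.2% and 18.3% of day 8 cells, and these intervals overlapped.

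Cdkn1b, which encodes p27, was at 10.7 CPM on day 0, then 4.55 and 7.40 CPM in the day 8 sets, 6.55 CPM on day 10, 8.15 CPM on day 12 and 13.5 CPM on day 14. As with Cdkn2c, the sets of days 8 and 10 were the lowest. The difference was log2 -0.84 on day 8 against day 0 (SE 0.52, adjusted p = 0.402) and log2 1.17 on day 14 against day 8 (SE 0.54, adjusted p = 0.138), and no comparison was called. In the 73 cells left out for few reads or genes, the Cdkn1b level was 16.8 CPM, against 7.44 CPM in kept cells. A Cdkn1b read was found in 38.4% of the cells left out and in 61.6% of kept cells. The part of low cDNA in the Cdkn1b differences was not tested. The thinned share was 39.1% on day 0 (29.1 to 49.9%) and 16.7% (9.64 to 26%) and 29% (20.1 to 39.4%) in the day 8 sets, which differed from each other more than the second of them differed from day 0. Per kilobase it was the lowest or next to lowest of the 10 genes in all 6 sets, with 1.0 to 2.96 CPM per kilobase.

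Cdkn2d, which encodes p19 of the INK4 family, was the most abundant of the 3 kinase inhibitors. It stood at 38.2 CPM on day 0, then 37.9 and 34.3 CPM in the day 8 sets, 29.3 CPM on day 10, 30.9 CPM on day 12 and 26.9 CPM on day 14. The first day 8 set was level with day 0, and the difference of day 8 from day 0 was log2 -0.08 (95% interval -0.68 to 0.52). A read was found in 56.7% (95% interval 45.8 to 67.1%) and 59.1% (48.5 to 69.2%) of thinned day 8 cells, 40.2% of day 0 cells (30.1 to 51%) and 23.4% of day 14 cells (12.3 to 38%). The day 8 intervals overlapped that of day 0 and lay above that of day 14.

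Btg1 and Btg2 fell together on day 8. Btg1 stood at 39.7 CPM on day 0, then 15.1 and 18.6 CPM in the day 8 sets, 20.5 CPM on day 10, 14.5 CPM on day 12 and 32.4 CPM on day 14. Days 0 and 14 were above all the other sets. It fell by 1.23 on the log2 scale on day 8 against day 0 (SE 0.34, adjusted p = 0.0176), a call lost with the DESeq2 Wald test (adjusted p = 0.111). The differences on day 10 (log2 -0.95, adjusted p = 0.304) and on day 12 (log2 -1.45, SE 0.41, adjusted p = 0.142) against day 0 were not called, the latter within 1 sex, nor was that of day 14 against day 8 (log2 0.94, adjusted p = 0.0639).

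Btg2 stood at 61.1 CPM on day 0, then 25.2 and 33.3 CPM in the day 8 sets, 23 CPM on day 10, 53.8 CPM on day 12 and 102 CPM on day 14. The sets of days 8 and 10 were the lowest and day 14 the highest. It fell by 1.06 on day 8 (SE 0.27, adjusted p = 0.0115) and fell by 1.41 on day 10 (SE 0.33, adjusted p = 0.0132) against day 0, on the log2 scale; with the DESeq2 Wald test neither fall was called. On day 14 it rose 3.48-fold against day 8 (log2 1.80, SE 0.28, adjusted p = 3.47e-06), between sets of the same sex; per spike-in read the difference was log2 0.37 (adjusted p = 0.362) and was not called.

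Btg2 reads also went with how little cDNA a well held. In the 73 cells left out for few reads or genes, 94.5% held a Btg2 read, against 63% for Cdk4 and 42.5% for Btg1, and the Btg2 level was 111 CPM there and 38.8 CPM in kept cells. Within each of the 6 sets, Btg2 had a rho below 0 with the ratio of gene to spike-in reads (-0.49 to -0.17) and with the number of genes read (-0.60 to -0.11). The gene it followed best was Slc34a2 (mean rho 0.41), a phosphate transporter gene that took 592000 CPM in the cells left out and 128000 CPM in kept cells. Slc34a2 stood at 167000 CPM on day 0, then 84100 and 138000 CPM in the day 8 sets, 98800 CPM on day 10, 153000 CPM on day 12 and 311000 CPM on day 14, and its part in the Btg2 differences was not tested. A limit of at least 4000 genes left out no cell of day 0 or day 8. The day 8 fall of log2 -1.06 under it (adjusted p = 0.00539) therefore rests on the same cells and is no check. The limit left 36 of 47 cells on day 14, and the rise on day 14 against day 8 was log2 1.46 (adjusted p = 2.25e-05).

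Scaling by spike-in reads in place of TMM moved the median of all genes by log2 0.99 on day 8 and 0.60 on day 10 against day 0, and by -1.49 on day 14 against day 8. Per spike-in read, Btg1 and Btg2 differed on day 8 from day 0 by log2 -0.26 (adjusted p = 0.636) and -0.09 (adjusted p = 0.869), against log2 4.41 for Ccnd1 (adjusted p = 7.92e-13), so the falls of the BTG genes are relative to other genes. Relative to the shifted median they were -1.25 and -1.08. Cdkn2c and Cdkn1b on day 14 against day 8 changed sign per spike-in read (log2 -0.01 and -0.25), and the Btg2 fall on day 10 against day 0 was not called (log2 -0.82, adjusted p = 0.173). On day 8 against day 0, Ccnd2 (log2 1.82, adjusted p = 6.17e-05), Ccnd3 (log2 1.62, adjusted p = 0.000171), Cdk4 (log2 1.19, adjusted p = 0.0141) and Cdkn2d (log2 0.91, adjusted p = 0.0404) were called per spike-in read. So were many others, with 6484 of all 15145 genes called higher. Relative to the shifted median, these members were 0.82, 0.62, 0.19 and -0.09 in turn. On day 14 against day 8, Ccnd1, Ccnd2, Ccnd3, Cdk4, Cdk6 and Cdkn2d were called lower there (log2 -5.22 to -1.47), where the median of all genes was -1.49. In that comparison 9029 of the 15145 genes were called lower. Relative to the median these members ran from -3.73 for Ccnd1 to 0.01 for Cdk6.

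The upstream sequence of the BTG pair is shown because both fell on day 8, and that of Cdk4 because it is the most abundant of the genes per kilobase and had no called change with TMM scaling. RefSeq windows (GRCm38.p6, the build of mm10) were matched by symbol for 8 of the 10 genes, with 2 windows each for Ccnd3 and Cdkn2c; the 250 bases before the start are given 5′ to 3′ on the gene's strand. Capitals mark matches on either strand. The words searched were GGGCGG for the GC box, CCAAT for the box of that name, TATAAA for the TATA box, CACGTG for the E-box, TTTGAA for a cell cycle element called CHR, and TTCNNNGAA for STAT factors. Longer words were TTTCGCGC and TTTGGCGC for E2F factors, TGACGTCA for the cyclic AMP element and TTGTTTAC for FOXO factors. Neighbouring matches can share bases, as GC boxes of Btg2 do.
Btg1, chr10:96616751-96617000, plus strand: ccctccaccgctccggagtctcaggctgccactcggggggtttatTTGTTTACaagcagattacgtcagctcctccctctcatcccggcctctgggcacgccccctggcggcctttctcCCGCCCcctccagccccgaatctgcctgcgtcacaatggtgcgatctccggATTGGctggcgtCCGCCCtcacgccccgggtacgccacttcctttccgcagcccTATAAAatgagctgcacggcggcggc
Btg2, chr1:134079156-134079405, minus strand: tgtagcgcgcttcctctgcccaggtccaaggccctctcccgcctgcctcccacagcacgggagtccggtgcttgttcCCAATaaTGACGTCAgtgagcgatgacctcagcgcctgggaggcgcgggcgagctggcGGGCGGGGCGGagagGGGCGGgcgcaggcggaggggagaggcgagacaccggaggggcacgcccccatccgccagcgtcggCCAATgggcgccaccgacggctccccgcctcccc
Cdk4, chr10:127063285-127063534, plus strand: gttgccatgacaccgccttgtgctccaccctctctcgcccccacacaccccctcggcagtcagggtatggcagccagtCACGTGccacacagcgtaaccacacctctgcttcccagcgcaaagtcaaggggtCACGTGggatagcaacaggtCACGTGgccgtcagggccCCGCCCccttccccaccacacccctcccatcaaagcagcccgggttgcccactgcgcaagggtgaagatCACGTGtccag
The Btg1 window holds 1 TTGTTTAC match, a word found in 1.07% of all 32851 windows of the same length, and 1 TATAAA match (12.4% of windows). The Btg2 window holds 1 TGACGTCA match (1.55% of windows), 3 GGGCGG matches (32.7%) and 2 CCAAT matches (33.8%). The Cdk4 window holds 4 CACGTG matches, a word found in 6.02% of windows. None of the 3 windows holds the E2F words searched for, which are in 0.256% and 0.417% of windows. A match is a string of letters, not a bound site.

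Within a set, cells differ in how many reads they hold of genes for DNA replication and for mitosis, and the 10 genes were compared with these lists (41 and 38 genes, none of them a member). Across the thinned cells of a set, the D cyclins and Cdk4 went with replication: Ccnd1 had Spearman's rho of 0.09 to 0.37 in the 6 sets, Ccnd2 0.12 to 0.54, Ccnd3 0.14 to 0.48 and Cdk4 0.19 to 0.50. With the mitosis list, Cdk4 alone of these had a rho above 0 in every set (0.11 to 0.47). The INK4 genes went with mitosis, not replication: rho of Cdkn2d was 0.13 to 0.50 with the mitosis list and -0.23 to 0.15 with the replication list, and for Cdkn2c these were -0.04 to 0.41 and -0.14 to 0.09. Cdkn1b stayed near 0 with both (-0.22 to 0.03 and -0.23 to 0.08). Btg2 was below 0 with replication in all 6 sets (-0.44 to -0.08). Btg1 was below 0 in 4 of 6 but ran from -0.17 to 0.34, with a mean of 0.04, and so showed no steady direction. These are descriptions across 47 to 93 cells of 1 library set, which share depth and capture, and most coefficients are weak.

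**Figure D4:**
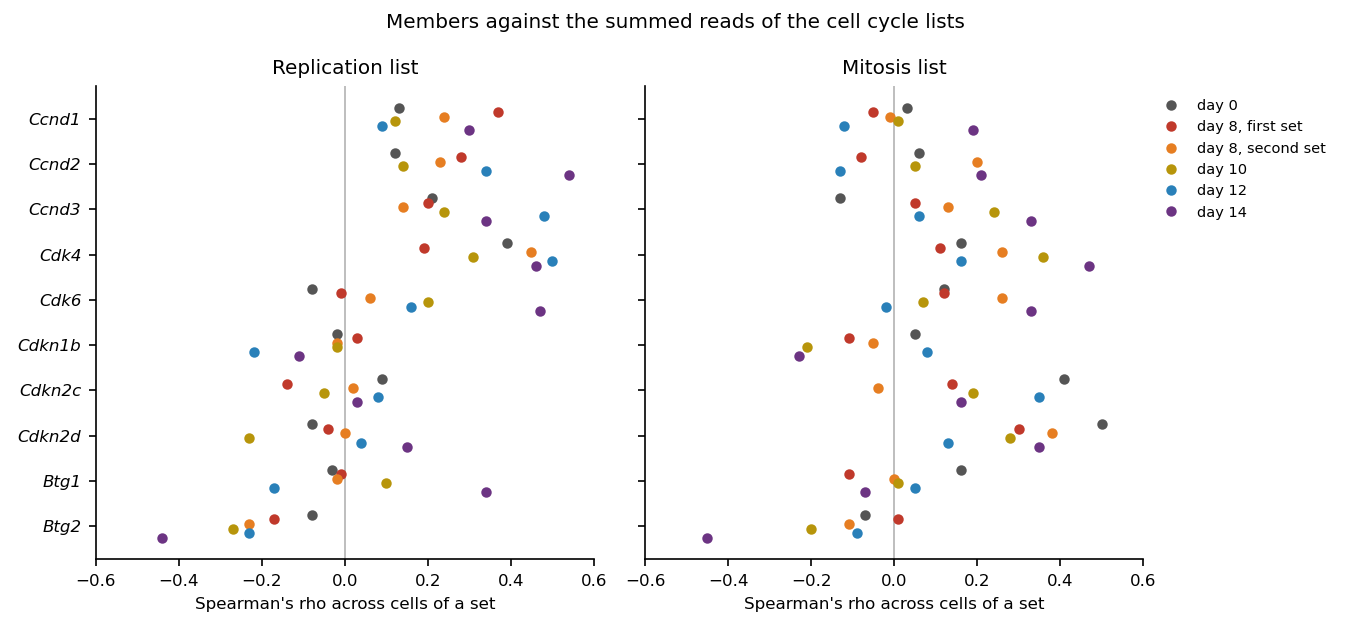
Spearman's rho (horizontal axis) across the thinned cells of a set between each gene and the summed reads of the replication list (left) or the mitosis list (right); each point is 1 of the 6 sets. All 6 points of Cdkn2d lie above 0 for mitosis (0.13 to 0.50), and all 6 points of Btg2 lie below 0 for replication (-0.44 to -0.08).

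How inhibitors and cyclins vary against each other was read from the same cells. Over the 15 pairs of a D cyclin and an inhibitor, the mean rho over 6 sets lay between -0.17 and 0.09, with Ccnd2 and Btg2 the lowest pair (-0.31 to 0.00, at or below 0 in all 6 sets). Cdk4 and Btg2 were also below 0 in every set (-0.28 to -0.12). Ccnd2 and Cdk4 had a rho above 0 in all 6 sets with the number of genes read (0.11 to 0.48 and 0.19 to 0.63) and with the ratio of gene to spike-in reads (0.13 to 0.50 and 0.11 to 0.68), where Btg2 was below 0, and the part of this in the pairs was not tested. Of the INK4 genes, Cdkn2d was above 0 in all 6 sets with Cdk4 (0.01 to 0.25) and with Cdk6 (0.03 to 0.28), and Cdk4 and Cdk6 with each other had a rho of 0.04 to 0.48. Btg1 and Btg2 hardly went together across cells (-0.22 to 0.15), though both fell on day 8.

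In each set the cells were split into 3 parts of like size by their reads in the 2 lists together, and the part with the most was compared with that with the fewest, with set as a term (12 sums). The parts are ranges of a score, not cell types: 9 to 61 cells per set lay within 10% of a limit. They also differed in markers. With many cycle reads, 6 of 11 tested GMP genes were lower (median log2 -0.89) and 4 of 10 tested monocyte genes were higher (median log2 0.76). In the mast cell, late neutrophil and lymphoid lists 1 gene each was lower, and in the stem and erythroid lists 1 each was higher. The part of these markers in the differences below was not tested. Of the 10 genes, 1 was called, where 7.54% of 9050 genes tested were. Btg2 was lower in cells with many cycle reads in all 6 sets, from 83.4 to 69.1 CPM on day 0, 44.4 to 25.8 and 73.7 to 34.1 CPM on day 8, 49 to 23.4 CPM on day 10, 70.6 to 42.2 CPM on day 12 and 398 to 39.7 CPM on day 14. The difference was log2 -1.16 (SE 0.30, adjusted p = 0.0222), and it was not called without the second day 8 set (adjusted p = 0.0744), without day 10 (0.0578) or without day 12 (0.067). Nor was it called with the mitosis list alone as the score (log2 -0.77, adjusted p = 0.0609) or in cells not thinned (log2 -1.04, adjusted p = 0.0703). The cells with few cycle reads also held fewer genes, with medians of 2691 against 6818 on day 14 and 7603 against 8795 in the first day 8 set, and a lower ratio of gene to spike-in reads, 21.6 against 67.2 on day 14. Among cells with at least 4000 genes, an alternative added after the data were seen, the Btg2 difference was log2 -0.82 (adjusted p = 0.0167). There too the cells with few cycle reads held fewer genes in all 6 sets. The medians were 5049 against 6802 on day 14 and 6812 against 8743 in the second day 8 set. The part of gene number in the Btg2 difference was not tested.

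Cdkn2c and Cdkn2d were read at higher levels in cells with many cycle reads in 5 of 6 sets each. Cdkn2c gave log2 1.37 (SE 0.52, adjusted p = 0.134), which became log2 1.86 (adjusted p = 0.0225) among cells with at least 4000 genes. Cdkn2d gave log2 0.86 (SE 0.36, adjusted p = 0.178). With the replication list alone as the score both signs turned (log2 -0.99 and -0.68). With the mitosis list alone Cdkn2d was called (log2 1.24, adjusted p = 0.0403), and without the day 14 set Cdkn2c was (log2 1.80, adjusted p = 0.0382). Under all other tested alternatives neither gene was called, apart from Cdkn2c with the 4000-gene limit, which was added after the data were seen. Outside day 14, Cdkn2c stood at only 0.894 to 4.32 CPM in the cells with few cycle reads, a few reads per set. Cdkn1b was lower in 5 of 6 sets (log2 -0.90, SE 0.49, adjusted p = 0.327), and the 3 D cyclins and 2 kinases lay between log2 -0.08 and 0.31, none of them called. Across cells, Cdkn1b had a rho below 0 with the ratio of gene to spike-in reads in 5 of 6 sets (-0.18 to 0.04). With the number of genes read it was below 0 in 4 sets and above 0 in 2 (-0.27 to 0.07). The part of this in the Cdkn1b difference was not tested.

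**Figure D5:**
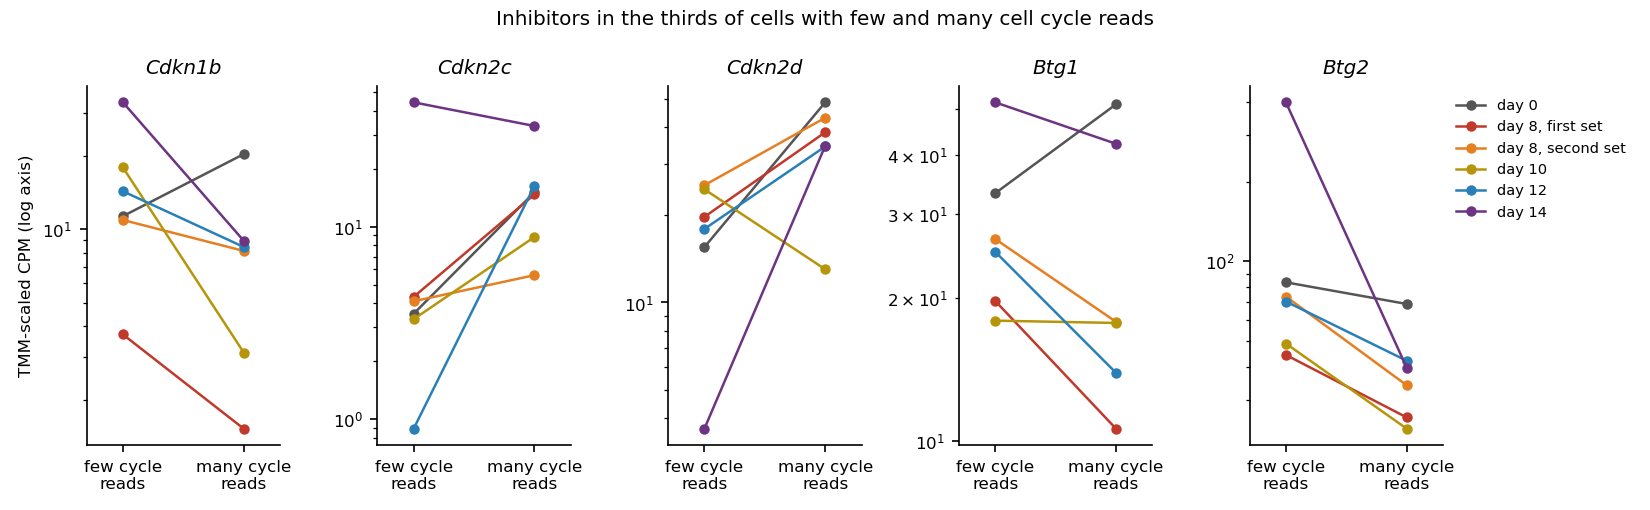
Level of the 5 inhibitor genes (vertical axis, TMM-scaled CPM, log axis) in the parts of each set with few and many cell cycle reads (horizontal axis); each line is 1 of the 6 sets. Btg2 goes down in all 6 sets, most steeply on day 14 (398 to 39.7 CPM), and Cdkn2d goes up in 5 of 6; the lowest Cdkn2c point, 0.894 CPM on day 12, is near a single read.

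Summed per kilobase, the 5 inhibitor genes stood at 2.24 times the D cyclin total on day 0, 0.712 and 0.849 times on day 8, 0.891 times on day 10, 1.29 times on day 12 and 2.34 times on day 14. Per kilobase the inhibitor sum was thus above the D cyclin sum on days 0, 12 and 14 and below it on days 8 and 10; before division by exon length the D cyclins had more reads in every set. The INK4 gene Cdkn2d and Btg2 gave most of the inhibitor sum, so this ratio carries the Btg2 values described above. At the level of cells, the median number of the 5 inhibitor genes with a read was 2 in every set, and cells with no inhibitor read were 0 of 92 on day 0, 7 of 90 and 2 of 93 on day 8, 6 of 93 on day 10, 1 of 85 on day 12 and 0 of 47 on day 14.

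Other genes of the pathway were taken as lists. On day 8 against day 0, edgeR called 9 of the 130 tested genes of 8 lists, against a background of 5.63% of all genes, while DESeq2 called 2 and limma voom 3. The 2 DESeq2 calls and 2 of the limma voom calls were replication genes, and the other limma voom call was an upstream regulator. The calls below in the cyclin E, A and B, BTG/TOB and mitosis lists were thus made by edgeR alone. Of 7 genes for cyclins E, A and B and their kinases, 2 rose on day 8 against day 0, the G1/S cyclins Ccne2 (log2 1.22, SE 0.33, adjusted p = 0.0152) and Ccne1 (log2 1.07, SE 0.34, adjusted p = 0.0455). Both fell from day 8 to day 14 (log2 -1.53 and -1.52), where DESeq2 called 1 gene of this list and limma voom 0. The first day 8 set was much the higher for both, at 75.4 against 41.1 CPM for Ccne2 and 88.4 against 39.3 CPM for Ccne1. Of 13 Rb and E2F genes and of 11 genes for turnover of D cyclins and p27, 0 were called on day 8 against day 0 by edgeR, with list medians of log2 0.14 and 0.33. In these lists 1 and 3 genes had an unadjusted p under 0.05, as did 2803 of all 15145 genes, and DESeq2 and limma voom called 0 of the list genes. Of 12 upstream regulators, Stat3, a cytokine signalling factor, rose (log2 0.88, SE 0.28, adjusted p = 0.0462), and of 7 other BTG/TOB genes and deadenylase partners, Cnot7, a CCR4-NOT deadenylase, rose (log2 0.92, SE 0.29, adjusted p = 0.0448). Of 41 replication genes 4 rose, the origin factor Orc1 (log2 1.82), the helicase factor Mcm10 (log2 1.05), the ribonucleotide reductase subunit Rrm2 (log2 1.0) and the chromatin assembly subunit Chaf1b (log2 0.93), and of 38 mitosis genes 1 rose, the kinase Nek2 (log2 1.19); the list medians were 0.20 and 0.06.

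On days 10, 12 and 14 against day 0, edgeR, DESeq2 and limma voom each called 0 of the 130 tested genes of these 8 pathway lists, with 16, 12 and 14 genes at an unadjusted p under 0.05 in edgeR. Of all 15145 genes, edgeR called 1.45%, 0.172% and 1.58% in these comparisons. An unadjusted p under 0.05 was found there for 1835, 1190 and 2047 of the 15145. Cdkn1a, which encodes the p53 target p21, was the 1 tested gene of 4 other CDK inhibitors, and it stood at 15.7 CPM on day 0, then 30.9 and 30.5 CPM in the day 8 sets, 8.60 CPM on day 10, 22.9 CPM on day 12 and 10.7 CPM on day 14. It was not called on day 8 against day 0 (log2 0.96) and fell by 1.83 on the log2 scale from day 8 to day 10 (SE 0.40, adjusted p = 0.00843) and fell by 1.51 from day 8 to day 14 (SE 0.43, adjusted p = 0.0115). On day 14 against day 8, where 14.2% of all genes were called, edgeR called 19 of the 130, DESeq2 15 and limma voom 3. The list genes were thus called by edgeR about as often as all genes. Of the limma voom calls, 1 each was in the upstream regulator, replication and mitosis lists. There limma voom called 0 genes of the cyclin E, A and B, Rb and E2F, other CDK inhibitor and turnover lists, so it did not call the day 14 fall of Cdkn1a. In that comparison the E2F partner Tfdp2 rose (log2 1.15) and the repressor E2f4 fell (log2 -1.05), Trp53 rose (log2 1.12) and Stat3 and Stat5a fell (log2 -1.15 and -1.04). Of the turnover genes, the SCF scaffold Cul1 and the cyclin D1 ubiquitin ligase subunit Fbxo31 fell (log2 -1.16 and -1.53), and 5 of 41 replication genes fell, most of all Rrm2 (log2 -1.16), Cdc6 (-1.14), Mcm10 (-1.11) and Slbp (-0.82). Of 38 mitosis genes, Nusap1 and Ube2c rose (log2 0.98 and 0.93) and Cdc20 and Cdca8 fell (log2 -0.88 and -0.79). Between cells with many and few cycle reads, Ccna2, Ccnb1 and Cdk1 were higher (log2 1.71, 1.70 and 1.23), genes of the same phases as those that made the score; Tfdp2 and Trp53 were lower (log2 -0.93 and -0.77).

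The genes whose reads went most with each member across cells were ranked by the mean rho over 6 sets among the 6633 genes read in 20% or more of the thinned cells of each set. For Ccnd2 they were Srm, Ncl and Fkbp4 (mean rho 0.43, 0.39 and 0.38), a polyamine enzyme, nucleolin and a chaperone gene. For Cdk4 they were the glycolysis gene Ldha (0.45) and the chaperonin subunits Cct4 and Cct8 (0.43 each), and for Cdk6 they were Dapp1, Adgrg1 and Myb (0.37, 0.35 and 0.32). Cdkn2d went with the mitosis genes Top2a and Kif23 and the histone gene H2afx (0.31, 0.30 and 0.29), and Cdkn2c with H2afx, Zfp263 and the proliferation marker Mki67 (0.24, 0.23 and 0.21). The means for Ccnd3 (Bin2, Actb and Impdh2-ps) were 0.29 to 0.31, those for Ccnd1 (Gm5391, Fkbp1a and Mtap) 0.23 to 0.24, those for Cdkn1b (Slain2, Frmpd3 and Slc34a2) 0.18 to 0.21 and those for Btg1 (Cactin, Tfg and Rgs2) 0.17 to 0.18. Btg2 went with Slc34a2, Scn4b and Prdm16 (0.41, 0.37 and 0.37) and against Hsp90ab1, Ncl and Eif5a (-0.40, -0.35 and -0.34), a chaperone, nucleolin and a translation factor. Slc34a2 was also among the 3 lowest for Cdk4 (-0.43) and for Ccnd2 (-0.27), and Scn4b (-0.28) and Yod1 (-0.27) were the others for Ccnd2, Plekhh2 and Klhl20 (-0.41 each) for Cdk4. The lowest for Ccnd1 were the granule proteoglycan gene Srgn, Ypel5 and Dnajc12 (-0.19 to -0.15), for Ccnd3 Gm13383, Dpysl3 and Cnnm4 (-0.23 to -0.19) and for Cdk6 Yod1, Synpo2 and Gm26670 (-0.20 to -0.19). The lowest for Cdkn1b were Ubac2, Ap3s1 and Cul1 (-0.20 to -0.18), for Cdkn2c Apaf1, Ide and Snx7 (-0.14 to -0.13), for Cdkn2d Ung, Actn1 and Rapgef4 (-0.20 to -0.16) and for Btg1 Dtx4, Stard3 and Mettl13 (-0.14 each). With the list of 13 stem and multipotent progenitor genes, Ccnd1 (0.08 to 0.35), Ccnd2, Ccnd3, Cdk4 (0.24 to 0.44) and Cdk6 (0.11 to 0.49) each had a rho of 0 or above in all 6 sets. For Cdk6 and Ccnd2 this was not particular to that list. Cdk6 was also above 0 in all 6 sets with the mast cell and basophil list (0.10 to 0.41) and the lymphoid list (0.02 to 0.40). Ccnd2 was so with the lymphoid list (0.09 to 0.38). Ccnd2 and Cdk4 also went with the number of genes read in all 6 sets, and its part here was not tested.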

How the data were processed

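The authors deposited raw counts, whole numbers of reads for each gene in each cell. The submitters' processing notes name GSNAP (2015-09-29), HTSeq (0.5.3p3) and the mm10 build, without their roles. Per the labels' protocols, cDNA from Smart-seq2 was made into libraries with a Nextera XT kit, which keeps neither strand nor molecular identifiers. The 5 rows that name no gene took 91.1% of the reads of the median cell (79.2% not aligned); they and the 92 spike-in rows stayed out of library sizes. Of 574 labelled cells, 573 had a column, and 1 further column matched no sample and was not used. Symbols came from GENCODE vM21 by gene ID, for 45143 of 46078 gene rows. No doublet caller was run, since cells were sorted singly.

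Counts of kept cells were summed per set. edgeR 4.0.16 in R 4.3.3 was fitted to the 6 sums, with a term for each day, TMM factors and its quasi-likelihood test, adjusted by Benjamini-Hochberg over 15145 genes; these passed filterByExpr and were read in 10% or more of the kept cells of at least 1 set. Intervals of log2 changes are 1.96 SE either side. The fit had 1 residual and 51.5 prior degrees of freedom. Nothing in the labels says that separate mice gave the pair of day 8 sets, so the spread behind each p may be technical. Shares, correlations and the split by cycle reads used cells thinned at random to 50000 reads (seed 1), and that split was tested in edgeR with set as a term. Both fits were also run on simulated counts drawn with the same spread for every set. Such a run cannot show how the tests hold if days with a single set differ in spread. Alternatives were other scalings, DESeq2 1.42.0, limma 3.58.1, other filters on cells and genes, thinning, and leaving out sets. Other steps ran in Python 3.11.15 (numpy 2.4.6, scipy 1.17.1, pandas 2.3.3, matplotlib 3.10.9).

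The 10 genes and all lists were chosen with earlier results of these data known. Besides the 10, the rule named up to 4 called genes of largest change per pathway list and comparison, and the 3 genes of highest and of lowest mean correlation with each of the 10; for the replication and mitosis lists between cells with many and few cycle reads, which they define, no genes are named. Xist and Eif2s3y were named after their values were seen.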

Additional observations from a re-analysis of the deposited data

How the results depend on the processing

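The number of genes called, 853 (day 8 against day 0), 220 (day 10 against day 0), 26 (day 12 against day 0), 239 (day 14 against day 0), 120 (day 10 against day 8), 378 (day 12 against day 8), 2145 (day 14 against day 8) and 682 (high against low cycle reads), moved by over 1.5 times under some settings. With scaling by spike-in reads it was 6582 for day 8 against day 0, 1122 for day 10 against day 0, 626 for day 14 against day 0, 5524 for day 12 against day 8 and 9293 for day 14 against day 8. That scaling also turned the split of higher and lower calls, from 396 and 457 to 6484 and 98 on day 8 and from 104 and 116 to 1061 and 61 on day 10 against day 0, from 10 and 16 to 20 and 14 on day 12, from 130 and 109 to 89 and 537 on day 14, and against day 8 from 73 and 47 to 17 and 140 on day 10, from 211 and 167 to 77 and 5447 on day 12 and from 1148 and 997 to 264 and 9029 on day 14. With the DESeq2 Wald test it was 361 for day 8 against day 0, 52 for day 10 against day 0, 4 for day 12 against day 0, 67 for day 14 against day 0, 45 for day 10 against day 8, 171 for day 12 against day 8 and 1081 for day 14 against day 8. With DESeq2 size factors it was 16 for day 12 against day 0 and 75 for day 10 against day 8. With limma voom it was 11 for day 12 against day 0, 96 for day 14 against day 0 and 875 for day 14 against day 8. With no gene filter it was 73 for day 12 against day 0. With cells with at least 200000 reads it was 63 for day 12 against day 0, 1717 for day 14 against day 0 and 43 for day 10 against day 8. With cells with at least 4000 genes it was 81 for day 12 against day 0 and 186 for day 10 against day 8. With all 573 cells it was 564 for day 14 against day 0. With cells thinned to 50000 reads edgeR called 0 genes in all 7 comparisons of days (484 to 2496 genes at an unadjusted p under 0.05), and no other tool was run on thinned sums. Between cells with many and few cycle reads it was 374 with the mitosis list alone, 355 without the day 12 set and 411 without the second day 8 set.

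The sign of a log2 change turned in these cases, and the cause was not tested. With scaling by spike-in reads, day 8 against day 0 Cdk6 0.82, Cdkn1b 0.13 and Cdkn2d 0.91, day 10 against day 0 Cdkn2d 0.21, day 12 against day 0 Cdk6 0.00, day 14 against day 0 Ccnd2 -0.33, Ccnd3 -0.34, Cdkn1b -0.12 and Cdkn2c -0.28, day 10 against day 8 Cdk4 -0.34, Cdk6 -0.19, Cdkn1b -0.24 and Btg1 -0.10, day 12 against day 8 Cdk6 -0.82, Cdkn1b -0.44, Cdkn2c -0.06 and Btg2 -0.01, day 14 against day 8 Cdkn1b -0.25, Cdkn2c -0.01 and Btg1 -0.49. With cells thinned to 50000 reads, day 8 against day 0 Cdkn2d 0.12, day 12 against day 0 Ccnd1 -0.09 and Cdkn2c 0.37, day 14 against day 0 Cdk4 0.00 and Btg1 0.07, day 10 against day 8 Cdk4 -0.02 and Cdkn2c 0.12, day 12 against day 8 Btg1 0.26, day 14 against day 8 Cdk6 0.01. With cells with at least 200000 reads, day 10 against day 0 Cdk6 -0.04, day 12 against day 0 Btg2 0.25, day 14 against day 0 Ccnd3 -0.19, Cdkn1b -0.03, Cdkn2c -4.21 and Cdkn2d 0.24, day 14 against day 8 Cdkn2c -2.68 and Cdkn2d 0.41. With cells with at least 4000 genes, day 14 against day 0 Cdkn2c -0.02, day 14 against day 8 Cdk6 0.01. With the mitosis list alone, Ccnd1 -0.87 and Ccnd3 -0.16. With no gene filter, Ccnd2 0.10 and Cdk6 0.03. With the replication list alone, Ccnd2 0.42, Cdkn2c -0.99 and Cdkn2d -0.68. Without the first day 8 set, Ccnd2 0.00. Without the day 10 set, Ccnd2 0.04. Without the day 12 set, Ccnd2 0.04.

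Of the 10 calls among the 10 genes, those of Ccnd1 on day 8 against day 0 and on days 12 and 14 against day 8 were lost with thinned cells and with no other tested alternative (kept under 10 of 11, 10 of 11 and 9 of 10). The other calls were kept under fewer: Ccnd1 on day 10 against day 0 under 7 of 11, Btg1 and Btg2 on day 8 under 7 and 6 of 11, Btg2 on day 10 under 7 of 11 and on day 14 against day 8 under 8 of 10, Cdkn2c on day 14 against day 8 under 3 of 10, and Btg2 between cells with many and few cycle reads under 9 of 14. Among these last, the limit of 4000 genes was chosen after seeing the data. In the comparison of day 8 with day 0, a limit of 4000 genes left out no cell of either day. Calls kept under it there are no separate check. Leaving out either day 8 set leaves no residual degree of freedom, so those fits give values with no test, such as log2 3.28 and 3.55 for Ccnd1 on day 8 against day 0. Of 60 shares of cells, 34 left their interval without thinning and 28 at 100000 reads. Of 120 correlations with the cycle lists, 1 moved beyond its counting error without thinning, 6 at 100000 reads and 18 as Pearson's r. No paired analysis was possible because no pair of days shares 2 numbered sets. A single set stands for every day except day 8, so day cannot be told apart from plate or from how bones were prepared, nor from sex where a comparison crosses it; day 12 against day 0 and days 10 and 14 against day 8 do not cross it. With 4849678 reads in 47 cells, day 14 gives the least precision for low genes.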
